A study of Mus musculus with 48 samples.

Results

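A set of 5 genes with a side- or day-limited response to kainate, Kitl, Krt73, Syndig1l, Vsnl1 and Myo10, were followed through the mouse dentate gyrus after status epilepticus. They are 5 of the 55357 genes in the deposited count table, and all 5 were among the 21390 with enough counts to be tested. The 5 were selected on these data: Kitl and Krt73 because the kainate effect differed between the sides of the brain (at day 3 and day 7, respectively), Syndig1l because it differed between days 3 and 7 on the injected side, and Vsnl1 and Myo10 because it differed between days 7 and 14 there. The values that chose a gene, and every effect that entered them, are therefore given as a description without a test. Tests are given for the other days and for the other side, whose libraries came from the same mice as those of the injected side.

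The animals were wild-type C57BL/6J mice, 6 to 8 weeks old per the labels, with 2 males and 2 females per treatment and day. The methods give a somewhat older range. Each received 1 stereotactic injection of kainate or saline into one hippocampus. The ipsilateral dorsal dentate gyrus is called the epileptogenic zone (EZ) and the contralateral one the peri-ictal zone (PIZ). Both were dissected from every mouse at day 3, 7 or 14, so that 24 mice gave 48 polyadenylated RNA libraries in 12 groups of 4, and the saline animals carried the same surgery as the kainate animals. All kainate mice had at least 1 convulsive seizure in the hours after injection. Kainate is an agonist of glutamate receptors; a single focal dose starts a prolonged seizure, kills hippocampal neurons near the injection and is followed by spontaneous seizures.

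The 5 genes have different roles. Kitl encodes stem cell factor, the ligand of the receptor tyrosine kinase Kit, made as a membrane-bound and a secreted protein. Krt73 encodes a type II keratin of the hair follicle's inner root sheath, which assembles into filaments with type I partners. Syndig1l encodes a membrane protein related to Syndig1, a protein associated with AMPA-type glutamate receptors at developing synapses. Vsnl1 encodes visinin-like protein 1, a neuronal calcium sensor that moves to membranes when it binds calcium. Myo10 encodes an unconventional myosin that walks along actin bundles to the tips of filopodia.

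Library totals ran from 17762656 to 25712975 counts, with a median of 22108562. The values below are CPM, counts scaled to a common library total on library sizes scaled by TMM, and effects are log2 fold changes of kainate against saline, with standard errors (SE), from 1 edgeR quasi-likelihood fit of all libraries. Adjusted p-values are Benjamini-Hochberg values over all genes tested, and a gene was called when its adjusted p was under 0.01 and its fold change over 1.5. The 8 granule cell markers summed to between 668.7 and 1600 CPM in the saline libraries, and the 8 markers of CA1 and CA3 pyramidal cells to between 675.6 and 1177 CPM, so genes of neighbouring hippocampal fields were also present in the dissections. Several libraries stood apart within their groups. In the EZ of kainate mouse 27 at day 14, the 8 microglia and macrophage markers summed to 2396 CPM, against 383.7 to 544.5 CPM in the other 3 mice. Without this mouse the share of all genes called in the EZ at day 14 went from 2.36% to 0.0323% (7 genes), and without saline mouse 39 to 0.272%. Kainate mouse 44 at day 3 departed from its group for Kitl and Krt73. The summed granule cell markers were low in 3 libraries of the PIZ: 668.7 CPM in saline mouse 39 at day 14, against 1433 to 1458 CPM in its group, 765.9 CPM in saline mouse 18 at day 3, against 1175 to 1494 CPM, and 531.4 CPM in kainate mouse 21 at day 7, against 958.5 to 1121 CPM. Beside the results they move most, values without these mice are given, an alternative added after seeing the data. Effects near zero, above all at day 14, moved by more than 1.5 times in further cases that are not listed. In bulk tissue, fewer cells of a type and less RNA per cell cannot be told apart.

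All 5 genes are protein coding and were placed on GRCm39. Kitl lies at chr10:99851492-99936278 on the plus strand, Krt73 at chr15:101701743-101710802 on the minus strand, Syndig1l at chr12:84722573-84745701 on the minus strand, Vsnl1 at chr12:11375161-11488178 on the minus strand and Myo10 at chr15:25622611-25813759 on the plus strand. Kitl and Krt73 overlap no other annotated gene. Vsnl1 overlaps Smc6 on the opposite strand, which strand-specific counting keeps apart. Syndig1l shares its strand with the long noncoding Gm59669, and Myo10 with the processed pseudogene Gm2862 and the unclassified Gm48996. These overlaps come from a later Gencode release than the one used for counting. Whether the counted release held these neighbours was not checked, so an effect on the counts is possible but was not shown.

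The upstream sequences of the 2 genes whose effect differed between sides are shown because they are the start regions of the only pair chosen for a side difference. They are the 250 bases before the RefSeq start on GRCm38.p6, chr10:100015571-100015820 on the plus strand for Kitl and chr15:101802361-101802610 on the minus strand for Krt73, written along the gene's own strand. Capitals mark the letters TATAAA, searched on the gene's strand.
Kitl: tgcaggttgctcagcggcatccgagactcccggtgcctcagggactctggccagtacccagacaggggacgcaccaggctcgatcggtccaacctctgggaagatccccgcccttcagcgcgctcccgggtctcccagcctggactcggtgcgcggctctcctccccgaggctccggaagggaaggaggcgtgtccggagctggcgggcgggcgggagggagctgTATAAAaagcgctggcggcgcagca
Krt73: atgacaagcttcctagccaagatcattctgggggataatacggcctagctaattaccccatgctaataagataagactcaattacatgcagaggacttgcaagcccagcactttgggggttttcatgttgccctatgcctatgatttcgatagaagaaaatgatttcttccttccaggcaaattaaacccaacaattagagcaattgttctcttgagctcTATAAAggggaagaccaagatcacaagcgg
Both hold the TATA letters, beginning 25 bases before the start in Kitl and 30 bases before it in Krt73, where a TATA box usually lies. Of all 32851 promoters in the table, 7.59% hold these letters anywhere in the 250 bases, not only near the start. An alternative Myo10 start also has them, beginning 223 bases before it, while the other Myo10 window and those of Vsnl1 do not. Further motifs, of activity-regulated genes, were searched on both strands, the AP-1 site TGANTCA, held by 6.75% of all promoters, and the cAMP response element TGACGTCA, held by 1.55%. Neither set of letters occurred in the windows of the 4 genes matched in the table, Kitl, Krt73, Vsnl1 and Myo10, alternative starts included. A match of letters is a description, not a bound site.

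Compared per kilobase of exon, Vsnl1 was by far the most abundant of the 5. Its group means in saline mice were 78.2 to 97.3 CPM per kilobase. Myo10 had 3.83 to 5.14, Kitl 3.03 to 4.29, Krt73 1.12 to 1.87 and Syndig1l 0.937 to 1.37 CPM per kilobase. Saline EZ and PIZ libraries differed by between -0.74 and 0.34 on the log2 scale across the 5 genes and 3 days.

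**Figure D1:**
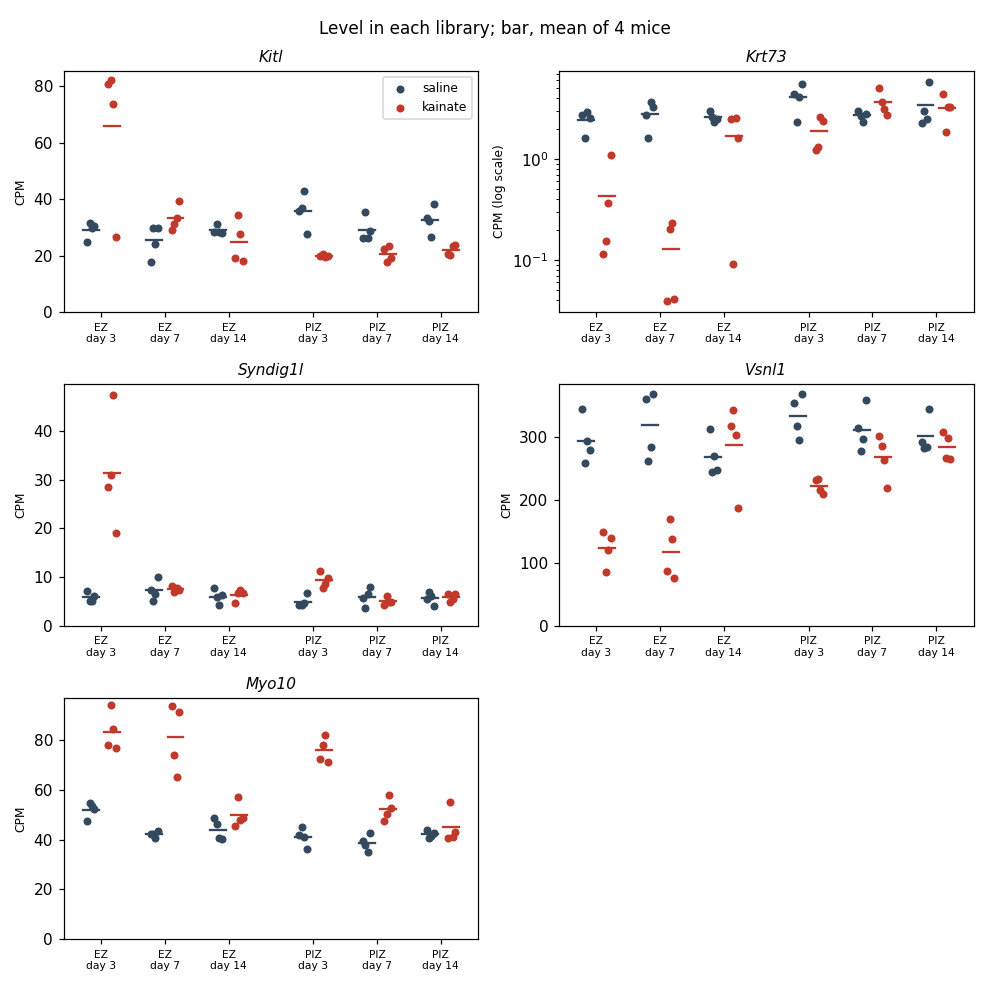
CPM of each of the 5 genes in all 48 libraries, by side and day, with saline in blue and kainate in red; points are mice, bars are the means of 4 mice, and the Krt73 axis is logarithmic. Kitl and Syndig1l stand high in the EZ at day 3, Krt73 and Vsnl1 stand low in the EZ at days 3 and 7, and Myo10 stands high on both sides at day 3.

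Kitl, the Kit ligand, moved in opposite directions on the 2 sides at day 3, which is the difference that chose it. In the EZ of the 4 kainate mice it was 81.0, 82.3, 73.8 and 26.7 CPM, and in saline mice 25.0, 31.5, 29.8 and 30.6 CPM. The first 3 kainate mice stood far above saline and mouse 44 lay within the saline range. In the PIZ of the same kainate mice, in the same order, Kitl was 19.7, 20.4, 19.5 and 19.7 CPM, against 35.7, 36.9, 43.0 and 27.8 CPM in saline mice. Here the groups did not overlap and mouse 44 was like the others. The kainate effect was 1.17 ± 0.21 on the injected side and -0.85 ± 0.21 in the PIZ, a difference between sides of 2.03 ± 0.29. Without mouse 44 the EZ effect was 1.43 ± 0.16 and the difference 2.29 ± 0.24. Of all genes, 24.7% were called in the EZ at day 3, 8.69% in the PIZ, and 0.0655% in the difference between sides. Within the kainate mice the ratio of EZ to PIZ was 4.10, 4.03, 3.78 and 1.36, against 0.695 to 1.10 in saline mice.

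The later days were independent of that choice, and no Kitl effect was called there. At day 7 the EZ held 29.2 to 39.2 CPM in kainate and 17.9 to 29.8 CPM in saline mice, with an effect of 0.39 ± 0.21 (adjusted p = 0.104). The PIZ held 17.9 to 23.5 CPM against 26.1 to 35.4 CPM, an effect of -0.49 ± 0.21 (adjusted p = 0.250). Each kainate mouse was below each saline mouse in the PIZ at day 7. The difference between sides was 0.88 ± 0.29 (adjusted p = 0.0234), short of the threshold, where 9.89% of all genes were called, 32.5% in the EZ and 0.201% in the PIZ. It was called by limma-voom with quality weights (adjusted p = 0.00661), which called 5126 genes there against 2115 by edgeR. All 4 kainate mice had more Kitl in the EZ than in the PIZ at day 7, with ratios of 1.32 to 2.03, while the saline ratios were 0.687 to 1.03.

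At day 14 Kitl in the EZ ranged from 18.2 to 34.3 CPM in kainate mice, with the highest value in mouse 27, and from 28.1 to 31.1 CPM in saline mice. The effect was -0.23 ± 0.21 (adjusted p = 0.593), and -0.43 ± 0.22 without mouse 27 (adjusted p = 1.0). In the PIZ the kainate mice, at 20.2 to 23.8 CPM, again lay below the saline mice, at 26.7 to 38.2 CPM, an effect of -0.57 ± 0.21 that did not pass (adjusted p = 0.564). The PIZ groups were thus separate at all 3 days, but day 3 entered the choice and neither later effect passed. How many of all genes separate in this way was not counted. Between sides the effects then differed by 0.35 ± 0.29 (adjusted p = 0.83), and by 0.11 ± 0.30 without mouse 27. At this day 2.36% of all genes were called in the EZ and 0.0140% in the PIZ. For the difference between sides the share was 0%, with 1562 genes at an unadjusted p under 0.05 by edgeR, while DESeq2 called 2 genes and limma-voom 0. Ordered by mean, the EZ of kainate mice at day 3 (65.9 CPM) stood first and the 3 kainate PIZ groups (19.8 to 22.0 CPM) last, and each group's range overlapped that of its neighbour in this order. The first overlapped the second only through mouse 44.

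Kit itself, the receptor, fell in the EZ at day 3. Kainate libraries held 8.84 to 15.3 CPM and saline libraries 30.5 to 41.3 CPM, so that the groups did not overlap, and the decrease was of 1.54 ± 0.41 (adjusted p = 0.00217). For the PIZ at day 3 the kainate mice held 19.8 to 35.1 CPM and the saline mice 139, 53.0, 62.8 and 53.7 CPM, with the highest value in mouse 18. The effect of -1.46 ± 0.40 passed (adjusted p = 0.00721), but without mouse 18 it was -1.01 ± 0.41 (adjusted p = 0.0812) and without mouse 44 it was -1.33 ± 0.45 (adjusted p = 0.0346). At day 7 the Kit effect was -0.65 ± 0.40 for the EZ and 0.37 ± 0.40 in the PIZ, and neither passed. On that side at day 7 the kainate mice held 132, 36.4, 35 and 37.2 CPM, with the highest value in mouse 21, against 39.2 to 58.7 CPM in saline, and without that mouse the effect turned to -0.36 ± 0.38. The ligand and its receptor had effects of opposite sign in the EZ at day 3 and of the same sign in the PIZ (-0.85 for Kitl and -1.46 for Kit). The Kitl effects of day 3 entered its choice, so this is a description.

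Of the 12 other genes in the list of Kit, its relatives and their ligands, 7 rose and 3 fell in the EZ at day 3, with a median log2 change of 0.75 against 0.03 over all genes. Over all genes 16.1% rose and 8.61% fell in this comparison. At day 7, 7 rose and 2 fell in the EZ, where 20.6% of all genes rose and 11.9% fell. In the PIZ at day 3, 1 rose and 1 fell, the latter Kit, beside 7.12% and 1.57% of all genes. Without mouse 44 or without mouse 18, 5 rose and 3 fell in the EZ at day 3, and 1 rose and 0 fell in the PIZ. Without mouse 21, 5 rose and 2 fell in the EZ at day 7. Csf1r, the receptor of colony-stimulating factor on microglia, rose by 2.66 ± 0.31 in the EZ at day 7 (adjusted p = 2.84e-08), and Pdgfra, the receptor of oligodendrocyte precursors, by 0.99 ± 0.21 in the EZ at day 3 (adjusted p = 0.000193). Flt3, a cytokine receptor, fell by 0.99 ± 0.26 in the EZ at day 3 (adjusted p = 0.00200). Among 16 genes that relay the Kit signal, 7 rose and 0 fell in the EZ at day 3, 8 rose and 0 fell at day 7, and 3 rose in the PIZ at day 3. Ptpn6, the phosphatase SHP-1 of blood cells, had the smallest p and rose by 4.02 ± 0.46 in the EZ at day 7 (adjusted p = 2.39e-08). All 8 microglia and macrophage markers were called higher in the EZ at day 7 as well, and their part in the rise of these genes was not tested.

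The genes whose log2 CPM followed Kitl most closely over the 48 libraries were Irs2 (Pearson r = 0.827), Spred1 (0.819), Hnrnpa2b1 (0.814), Cct3 (0.807) and Tmx1 (0.796). These libraries share groups and depth, so the coefficients are descriptions. Spred1, an inhibitor of the Ras pathway, had an effect of 1.14 ± 0.17 in the EZ at day 3 and of -0.13 ± 0.17 in the PIZ. Irs2, an adaptor of the insulin receptor, had 0.45 ± 0.11 and -0.36 ± 0.11.

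**Figure D2:**
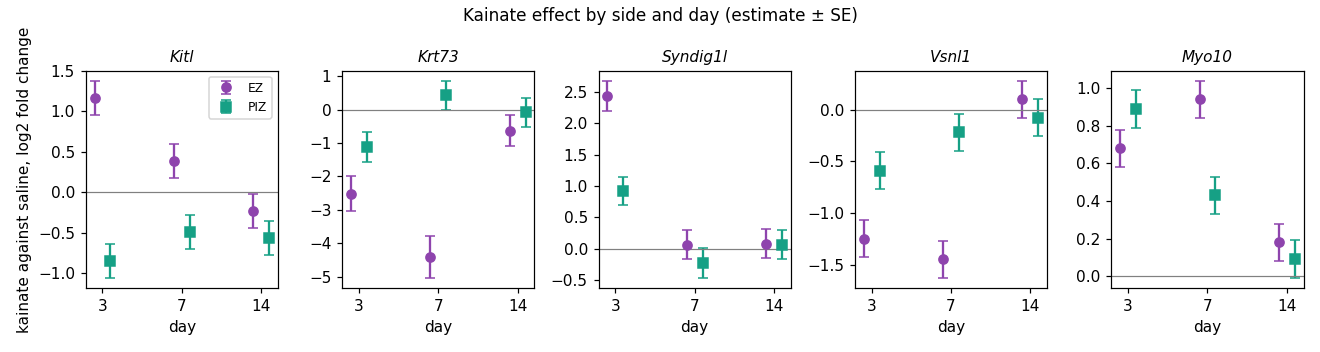
Kainate effect (log2 fold change against saline, estimate ± SE, 4 mice per group) of each gene by day, with the EZ as purple circles and the PIZ as green squares; the axes differ between genes. The sides lie on opposite sides of zero for Kitl at day 3 (1.17 and -0.85), and all effects at day 14 lie between -0.63 and 0.18.

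Krt73, the keratin, was nearly absent from the EZ a week after kainate and lay within the saline range in 2 of 4 mice at day 14. It was chosen by the difference between sides at day 7. There the EZ of kainate mice held 1, 4, 6 and 1 counts, equal to 0.0392, 0.204, 0.234 and 0.0415 CPM, against 2.76, 1.61, 3.66 and 3.25 CPM in saline mice. In the PIZ of the kainate mice Krt73 was 5.07, 3.69, 3.13 and 2.74 CPM, and in saline mice 3.01, 2.67, 2.34 and 2.82 CPM. The injected side was depleted in every kainate mouse and the other side was not. The effect was -4.41 ± 0.63 for the EZ and 0.43 ± 0.44 in the PIZ, and the difference -4.84 ± 0.78.

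Krt73 also fell in the EZ at day 3, which did not enter the choice. The kainate mice held 0.115, 0.153, 0.363 and 1.09 CPM, from 3, 4, 10 and 26 counts, and the saline mice 2.74, 1.62, 2.91 and 2.53 CPM. Every kainate mouse was below every saline mouse, and mouse 44 was the least depleted. The effect was -2.52 ± 0.52 (adjusted p = 0.000148), a 5.74-fold decrease, and without mouse 44 it was -3.49 ± 0.59, or 11.3-fold. In the PIZ at day 3 the kainate mice had 1.23, 1.33, 2.62 and 2.40 CPM against 4.41, 2.33, 4.07 and 5.56 CPM. In this group 2 of the kainate mice lay below all saline mice, and the effect of -1.11 ± 0.45 did not pass (adjusted p = 0.0648), though limma-voom with quality weights, which called 2778 genes there against 1858 by edgeR, called it (adjusted p = 0.00326). The difference between sides at day 3 was -1.41 ± 0.68 (adjusted p = 0.271), so a limit to 1 side was not shown for day 3. Leaving out mouse 44 moved it to -2.24 ± 0.74 (adjusted p = 0.0625).

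By day 14 the EZ of kainate mice held 2.52, 2.53 and 1.63 CPM in 3 mice and 0.0906 CPM, or 2 counts, in mouse 27. The saline mice held 2.97, 2.60, 2.31 and 2.49 CPM. Mice 40, at 1.63 CPM, and 27 were below all saline mice. The effect was -0.63 ± 0.46 (adjusted p = 0.496), and -0.23 ± 0.39 without mouse 27. With other tools it ran from -0.20 in limma-voom with quality weights to -1.37 with the mouse as a random effect, and was called by none of the 8 alternatives. In the PIZ of mouse 27 Krt73 was 1.86 CPM, the lowest of its group but 39 counts. The PIZ effect was -0.08 ± 0.44 (adjusted p = 1.0) and the difference between sides -0.55 ± 0.63 (adjusted p = 0.875). Without mouse 27 these were 0.11 ± 0.37 and -0.34 ± 0.53, and without saline mouse 39, whose PIZ held the most Krt73 of its group (5.83 CPM), they were 0.31 ± 0.47 and -0.96 ± 0.68. The difference was -1.34 with the mouse as a random effect. From day 7 to day 14 the EZ effect changed by 3.78 ± 0.80, and by 4.18 ± 0.66 without mouse 27, where 0.271% of all genes were called, and from day 3 to day 7 by -1.89 ± 0.86, or -0.91 ± 0.90 without mouse 44. Both are described only, since the day 7 effect took part in the choice. Ordered by mean, the EZ of kainate mice at days 7 (0.130 CPM), 3 (0.431 CPM) and 14 (1.69 CPM) were the 3 lowest groups. Neighbouring groups overlapped throughout. With at most 122 counts in any library, counting error is larger for Krt73 than for the other 4 genes.

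Interneuron genes moved beside Krt73. Lhx6, a transcription factor of interneurons from the medial ganglionic eminence, fell by 2.11 ± 0.36 in the EZ at day 3 (adjusted p = 1.49e-05) and by 2.03 ± 0.36 at day 7 (adjusted p = 1.25e-05). The neuropeptide gene Sst fell by 3.13 ± 0.66 (adjusted p = 0.000190) and 2.28 ± 0.63 (adjusted p = 0.00217). In the EZ at day 14, Lhx6 was 1.27 CPM in mouse 27 against 9.33, 9.89 and 10.2 CPM in the others, and Sst was 2.22 CPM against 81.0, 62.8 and 35 CPM. The EZ library with the least Krt73 at day 14 was also the one with the least Lhx6 and Sst. At day 3, mouse 44 had the highest EZ values of Krt73, Lhx6 (4.13 CPM) and Sst (12.4 CPM) among the kainate mice. At day 7, mice 21 and 35, with 1 count of Krt73 each, also had the least Lhx6 (1.84 and 1.12 CPM, against 3.57 and 4.25 CPM). For Sst, mouse 35 was lowest (0.207 CPM) but mouse 21 was highest (21.4 CPM, against 9.33 and 12.3 CPM in the others). Over the 48 libraries Lhx6 had r = 0.954 with Krt73, one of the 5 highest. Of the 8 interneuron markers, 5 fell in the EZ at day 3, and 4 fell at day 7. None rose in the EZ at either day, though 1 did at day 7 without mouse 21. Of all genes, 8.61% fell in the EZ at day 3 and 11.9% at day 7. The markers not called include the GABA-synthesizing enzymes, with Gad1 at -0.43 ± 0.18 and Gad2 at -0.24 ± 0.24 in the EZ at day 3, and Npy, at 1.02 ± 0.42 at day 3 and 1.2 ± 0.43 at day 7. The summed level of the 8 was 294.1 to 466.7 CPM in kainate and 422.6 to 589.6 CPM in saline EZ libraries at day 3, and no marker was at 0 in any library. This sum did not follow Krt73: it was highest of its group in mouse 27 at day 14 (665.7 CPM, against 441.3 to 540.0 CPM) and in mouse 30 rather than mouse 44 at day 3. In the PIZ at day 3 none of the 8 fell, beside 1.57% of all genes, and Npy, a peptide that is also made by other neurons after seizures, rose by 1.70 ± 0.43 (adjusted p = 0.00376). The Npy effect was 1.68 ± 0.46 without mouse 44 (adjusted p = 0.0105) and 1.61 ± 0.48 without mouse 18 (adjusted p = 0.0184). The part of interneuron number in the Krt73 change was not tested.

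**Figure D3:**
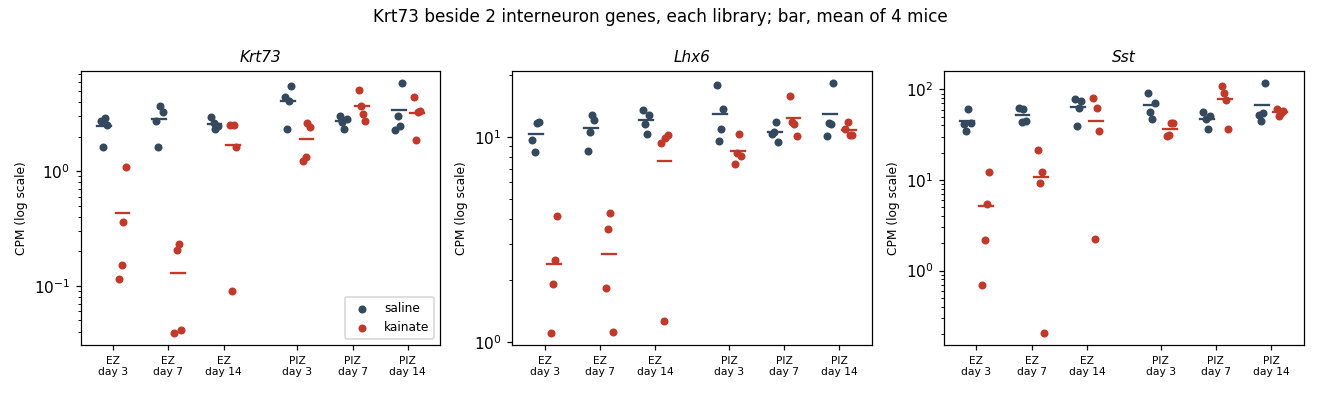
CPM on a log scale of Krt73 and of the interneuron genes Lhx6 and Sst in each library, by side and day, with saline in blue, kainate in red and bars at the means of 4 mice. In all 3 panels the kainate EZ libraries at days 3 and 7 lie lowest, with 1 further low point at day 14 from mouse 27 (Krt73 0.0906, Lhx6 1.27 and Sst 2.22 CPM).

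The other genes nearest to Krt73 were Lztr1 (r = 0.959), Krt222 (0.957), Nrsn1 (0.957) and Cntnap4 (0.956), and 325 genes exceeded 0.9. Krt222, a keratin-like gene, fell by 1.28 ± 0.26 in the EZ at day 3 (adjusted p = 0.000152) and by 1.94 ± 0.27 at day 7 (adjusted p = 2.71e-07), and its effect at day 14 was -0.34 ± 0.26. Cntnap4, a cell adhesion gene of interneurons, fell by 2.14 ± 0.36 and 2.55 ± 0.37 at days 3 and 7.

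Most of the keratin family was too scarce to test. Of 36 listed genes, 24 had too few counts, among them Krt71, Krt72 and Krt74, the nearest type II relatives of Krt73. The highest count of any of those 3 in a library was 2. Of the 11 tested beside Krt73, 2 rose and 2 fell in the EZ at day 3, 3 fell at day 7, and 1 rose in the PIZ at day 3, beside 16.1%, 8.61%, 11.9% and 7.12% of all genes in the same comparisons and directions. Without mouse 44, 6 fell at day 3, and without mouse 21, 1 fell at day 7, while without mouse 18, 1 fell in the PIZ at day 3. Krt10 fell by 0.87 ± 0.20 at day 3 (adjusted p = 0.000654), Krt77, another type II keratin, by 1.98 ± 0.59 at day 7 (adjusted p = 0.00429, and 0.0109 without mouse 21), and Krt80 rose by 2.69 ± 0.65 at day 3 (adjusted p = 0.000866).

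Syndig1l, the gene of the AMPA receptor-associated family, was high for a short time. It was chosen by the change of the EZ effect between days 3 and 7. At day 3 the EZ of kainate mice held 28.4, 31, 47.4 and 19.0 CPM, and that of saline mice 7.11, 5.0, 5.07 and 5.99 CPM. The lowest kainate value, in mouse 44, was still above all saline mice. At day 7 the kainate EZ held 8.11, 6.88, 7.72 and 7.22 CPM, inside the saline range of 5.04 to 9.98 CPM. The EZ effect was 2.44 ± 0.24 at day 3 and 0.06 ± 0.23 at day 7, a change of -2.38 ± 0.33, where 0.145% of all genes were called.

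The contralateral values took no part in that choice, though they came from the same mice, and Syndig1l rose there too. In the PIZ at day 3 it was 11.3, 7.68, 8.54 and 9.75 CPM in kainate mice and 4.13, 4.23, 4.68 and 6.70 CPM in saline mice. The groups did not overlap, and the effect was 0.92 ± 0.23 (adjusted p = 0.00390), a 1.89-fold increase. The call was lost when kainate mouse 30 (0.81, adjusted p = 0.0207) or saline mouse 18 (0.84, adjusted p = 0.0194), 29 (0.85, adjusted p = 0.0174) or 37 (0.89, adjusted p = 0.0144) was left out, with the direction kept. The PIZ effect was -0.23 ± 0.24 at day 7 (adjusted p = 0.702) and 0.06 ± 0.23 at day 14 (adjusted p = 0.999). Its change between days 3 and 7 was -1.15 ± 0.33, the sign of that in the EZ, but did not pass (adjusted p = 0.158), where 0.0234% of all genes were called. The difference between sides at day 3 was 1.52 ± 0.33, and 1.73 ± 0.33 without mouse 44, a description since the EZ effect entered the choice.

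At day 14 the EZ held 4.54 to 7.25 CPM in kainate and 4.18 to 7.62 CPM in saline mice, with an effect of 0.08 ± 0.23 (adjusted p = 0.892) and a 95% interval of -0.39 to 0.55. Between sides the effects differed by 0.02 ± 0.33 (adjusted p = 0.998). Over the 12 groups, the EZ of kainate mice at day 3 (31.4 CPM) was separated from all others. The PIZ of kainate mice at day 3 (9.32 CPM) came next and overlapped the third, and the remaining 10 groups had means of 4.93 to 7.48 CPM and overlapped.

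None of the other 4 genes of the family was called higher in the EZ or PIZ. Syndig1, the namesake, had -0.14 ± 0.25 for the EZ and 0.22 ± 0.25 for the PIZ at day 3. Prrt1, which encodes an AMPA receptor-associated protein also called SynDIG4, fell by 0.74 ± 0.20 in the EZ at day 3 (adjusted p = 0.00198) and by 1.07 ± 0.20 at day 7 (adjusted p = 1.85e-05). Prrt2, a presynaptic relative mutated in paroxysmal dyskinesia and infantile seizures, fell by 1.62 ± 0.34 in the EZ at day 7 (adjusted p = 0.000134). Among 12 other AMPA receptor auxiliary proteins, 1 rose and 6 fell in the EZ at day 3, 1 rose and 7 fell at day 7, and 1 fell in the PIZ at day 3. Of all genes, 16.1% rose and 8.61% fell in the first comparison, 20.6% rose and 11.9% fell in the second and 1.57% fell in the third. Without mouse 21, 0 rose and 5 fell at day 7, and without mouse 44, 0 fell in the PIZ at day 3. Cacng2, or stargazin, had the smallest p and fell by 1.15 ± 0.17 in the EZ at day 3 (adjusted p = 2.03e-06).

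Syndig1l is abundant in the striatum, so striatal markers were examined beside it. Their sum was 352.3 to 1708 CPM in the kainate EZ at day 3 and 79.3 to 90.9 CPM in saline. Most of that sum was Penk, the enkephalin gene, which hippocampal neurons also express, at 281.8 to 1629 CPM. Drd1 rose by 2.28 ± 0.38 (adjusted p = 1.01e-05), while Drd2 fell by 2.75 ± 0.52 (adjusted p = 4.36e-05), Ppp1r1b fell by 1.69 ± 0.39 (adjusted p = 0.000480), and the remaining 4 markers were not called. The kainate sum was 393.4 to 1687 CPM at day 7. The part of these genes' source in the Syndig1l rise was not tested.

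The closest genes were Egln3 (r = 0.835), 4930471E19Rik (0.834), Hmga1 (0.833), Hmga2 (0.828) and Nup93 (0.822). Egln3, an oxygen-sensing prolyl hydroxylase, had an EZ effect of 3.80 ± 0.44 at day 3 and of 1.81 ± 0.41 at day 7, and a PIZ effect of 1.65 ± 0.42 at day 3. Hmga1, a chromatin architectural protein, had 1.77 ± 0.19, 0.78 ± 0.19 and 0.85 ± 0.19 in the same comparisons. Both were still called in the EZ at day 7.

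Vsnl1, the calcium sensor, was lower in the EZ for a week and then level with saline. It was chosen by the change of the EZ effect between days 7 and 14. At day 7 the kainate EZ held 86.5, 170, 137 and 75.3 CPM, against 361, 262, 284 and 369 CPM in saline. At day 14 it held 318, 343, 303 and 187 CPM against 312, 244, 269 and 248 CPM. The groups were apart at day 7 and overlapped at day 14, when mouse 40 alone was below the saline range. The effects were -1.45 ± 0.18 and 0.10 ± 0.18, a change of 1.55 ± 0.25. Without mouse 27 the latter effect was 0.01 ± 0.19 and the change 1.45 ± 0.26.

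The decrease was already present at day 3, a comparison independent of the choice. The kainate EZ held 149, 84.9, 120 and 140 CPM and the saline EZ 344, 259, 294 and 279 CPM. Every kainate mouse was lower, and Vsnl1 fell by 1.25 ± 0.18 (adjusted p = 1.29e-06), or 2.38-fold. In the PIZ the kainate mice held 231, 233, 215 and 209 CPM, below all saline mice at 354, 317, 295 and 368 CPM. This effect of -0.59 ± 0.18 missed the threshold (adjusted p = 0.0152), but passed with DESeq2 (adjusted p = 0.00703) and when fitted on the compared groups alone (adjusted p = 0.000511). The difference between sides at day 3 was -0.66 ± 0.25 and did not pass (adjusted p = 0.167), while limma-voom with quality weights called it (adjusted p = 0.00276). That tool called 1879 genes in this comparison, against 14 by edgeR, or 0.0655%, and 99 by DESeq2. The PIZ effect was -0.22 ± 0.18 at day 7 (adjusted p = 0.601) and -0.08 ± 0.18 at day 14 (adjusted p = 0.999), and its change between these days was 0.14 ± 0.25 (adjusted p = 1.0). Without saline mouse 39 the PIZ effect at day 14 was -0.01 ± 0.20. For the change between days 7 and 14 in the PIZ the share of genes called was 0%, with 658 genes at an unadjusted p under 0.05 by edgeR, while DESeq2 called 1 genes and limma-voom 3. In the ordering of means, the EZ of kainate mice at days 3 (123.5 CPM) and 7 (117.2 CPM) overlapped each other and were separated from the PIZ of kainate mice at day 3 (222.0 CPM). The other 9 groups, at 267.4 to 333.6 CPM, overlapped from neighbour to neighbour.

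Of the 10 other neuronal calcium sensors tested, 2 rose and 3 fell in the EZ at day 3, 2 rose and 6 fell at day 7, and 1 rose in the PIZ at day 3. The shares of all genes were 16.1% and 8.61%, 20.6% and 11.9%, and 7.12%. Without mouse 21, 1 rose and 3 fell at day 7. Hpca, or hippocalcin, fell by 1.97 ± 0.43 in the EZ at day 3 (adjusted p = 0.000254), and Kcnip1, a subunit of potassium channels, by 1.80 ± 0.27 at day 7 (adjusted p = 6.71e-07). Kcnip3, or DREAM, a calcium-regulated repressor, rose by 1.19 ± 0.18 in the EZ (adjusted p = 1.96e-06) and by 1.03 ± 0.18 in the PIZ at day 3 (adjusted p = 6.50e-05). Hpcal1, the close relative also called visinin-like protein 3, had 0.26 ± 0.30 in the EZ at day 3.

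Vsnl1 ran closest to Snrpn (r = 0.967), Kifap3 (0.962), Dync1i1 (0.959), Nkiras1 (0.957) and Scn1a (0.955), and 202 genes exceeded 0.9. Scn1a, the sodium channel of Dravet syndrome, had an EZ effect of -1.51 ± 0.19 at both day 3 and day 7 and of -0.10 ± 0.19 at day 14. Dync1i1, a dynein subunit of neurons, had -1.29 ± 0.19, -1.21 ± 0.19 and -0.10 ± 0.18. The summed pyramidal cell markers moved beside Vsnl1, at 164.1 to 306.2 CPM in the kainate EZ at day 3 and 183.3 to 373.7 CPM at day 7, against 702.3 to 1177 CPM in the saline EZ at these days, and at 390.0 to 999.5 CPM in the kainate EZ at day 14. At day 14 mouse 27 had the lowest sum but the highest Vsnl1 (343 CPM). None of the 8 markers was at 0. The summed granule cell markers were 556.1 to 979.2 CPM in the kainate and 1137 to 1403 CPM in the saline EZ at day 3, and 263.9 to 1170 CPM against 981.5 to 1548 CPM at day 7. Their part in the Vsnl1 change was not tested.

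Myo10, the filopodial myosin, was higher on both sides at day 3. It was chosen by the change of the EZ effect between days 7 and 14. At day 7 the kainate EZ held 93.9, 74.1, 65.4 and 91.3 CPM and the saline EZ 42.2, 42.5, 40.6 and 43.5 CPM. At day 14 the kainate EZ held 45.4, 57.3, 48.1 and 48.6 CPM, with mouse 27 highest, and the saline EZ 48.9, 46.2, 40.5 and 40.1 CPM. The effect was 0.94 ± 0.10 and then 0.18 ± 0.10, a change of -0.76 ± 0.14, and of -0.84 ± 0.13 without mouse 27.

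At day 3, outside the choice, Myo10 rose in the EZ by 0.68 ± 0.10 (adjusted p = 1.29e-06) and in the PIZ by 0.89 ± 0.10 (adjusted p = 9.50e-08). The EZ values were 78.2, 94.2, 84.4 and 76.8 CPM in kainate and 47.7, 54.6, 53.6 and 52.3 CPM in saline mice. Those of the PIZ were 72.5, 78.2, 82.3 and 71.3 CPM and 41.9, 45.3, 41.1 and 36.2 CPM. All kainate mice were above all saline mice on both sides. The difference between sides was -0.21 ± 0.14 (adjusted p = 0.431), with a 95% interval of -0.49 to 0.07. The response at day 3 was thus not shown to differ between sides. The saline mice held more Myo10 in the EZ than in the PIZ at this day, by 0.34 ± 0.10 (adjusted p = 0.353), and their ranges did not overlap. In the PIZ at day 7 all kainate mice, at 47.4 to 58.2 CPM, were still above the saline mice, at 35 to 42.8 CPM, and the effect of 0.43 ± 0.10 did not pass (adjusted p = 0.0195, 1.35-fold). The difference between sides at day 7 was 0.51 ± 0.14, or 1.43-fold, a description since the EZ effect entered the choice. By day 14 the PIZ effect was 0.09 ± 0.10 (adjusted p = 0.998). The change of the PIZ effect from day 7 to day 14 was -0.34 ± 0.14 (adjusted p = 1.0). Ordered by mean, the EZ of kainate mice at days 3 (83.4 CPM) and 7 (81.2 CPM) and the PIZ at day 3 (76.1 CPM) led, overlapped each other, and were separated from the PIZ at day 7 (52.2 CPM) and the rest.

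**Figure D4:**
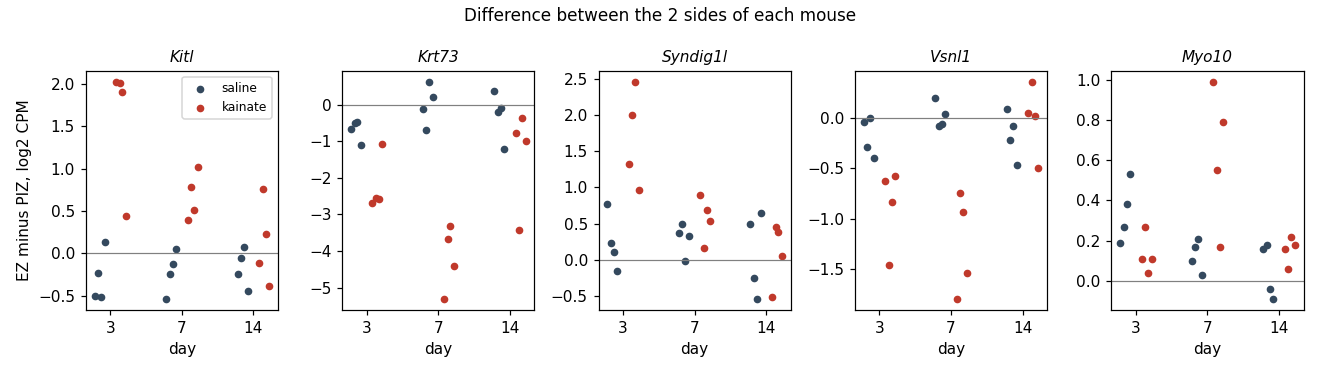
Difference of log2 CPM between the EZ and the PIZ of each mouse for the 5 genes, by day, with saline in blue and kainate in red. For Myo10 the kainate mice lie at 0.04 to 0.27 at day 3 and 0.17 to 0.99 at day 7, whereas for Krt73 they lie at -3.31 or lower at day 7.

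Within mice, the ratio of EZ to PIZ for Myo10 was 1.03 to 1.21 in kainate mice at day 3, not above the 1.14 to 1.44 of saline mice. At day 7 it was 1.12 to 1.98 against 1.02 to 1.16. Krt73 had ratios of 0.00773 to 0.0747 at day 7 against 0.602 to 1.57. Vsnl1 had 0.287 to 0.596 against 0.943 to 1.15.

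Of the 19 other unconventional myosins tested, 7 rose and 0 fell in the EZ at day 3, 8 rose and 2 fell at day 7, and 2 rose in the PIZ at day 3. Of all genes, 16.1% rose in the first, 20.6% rose and 11.9% fell in the second and 7.12% rose in the third. Without mouse 21, 0 fell at day 7. In the EZ at day 14, 2 rose, beside 2.36% of all genes called, and 0 rose without mouse 27 or without mouse 39. Myo1f, a myosin of white blood cells and microglia, had the smallest p and rose by 3.69 ± 0.46 in the EZ at day 7 (adjusted p = 5.15e-08) and by 2.55 ± 0.45 in the PIZ at day 3 (adjusted p = 9.28e-05). Myo7a, a myosin that like Myo10 carries MyTH4 and FERM domains, rose by 0.80 ± 0.14 in the EZ at day 3 (adjusted p = 1.88e-05). Of 15 genes of filopodia, 6 rose and 3 fell in the EZ at day 3, 5 rose and 3 fell at day 7, and 2 rose and 2 fell in the PIZ at day 3. Of all genes, 16.1% rose and 8.61% fell in the first, 20.6% and 11.9% in the second and 7.12% and 1.57% in the third. Leaving out mouse 18 or mouse 44 left 1 that rose there. Itgb5, an integrin subunit carried by Myo10 to filopodial tips, rose by 1.78 ± 0.33 in the EZ (adjusted p = 4.48e-05) and 1.65 ± 0.34 in the PIZ (adjusted p = 0.000434) at day 3. Vasp, which lengthens actin filaments, rose by 1.39 ± 0.22 and 0.89 ± 0.22, the latter not called without mouse 44 (0.86 ± 0.24) or mouse 18 (0.87 ± 0.24). Dcc, the netrin receptor and a Myo10 cargo, fell by 1.44 ± 0.20 in the EZ (adjusted p = 8.61e-07) and 1.16 ± 0.20 in the PIZ (adjusted p = 6.23e-05).

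The genes closest to Myo10 were 2810459M11Rik (r = 0.959), Vim (0.957), Ckap2l (0.957), Efemp2 (0.956) and Lgals1 (0.952), and 460 genes exceeded 0.9. Vim, the intermediate filament of reactive astrocytes, had effects of 3.23 ± 0.51 for the EZ and 4.54 ± 0.55 for the PIZ at day 3. In kainate mice at that day it held 908 to 1768 CPM in the EZ and 492 to 807 CPM in the PIZ. In saline mice Vim held 78.1 to 204 CPM in the EZ and 22.3 to 32.5 CPM in the PIZ, so its EZ effect was taken against a higher saline level. Its EZ effect was still 2.64 ± 0.50 at day 14, with 684 CPM in mouse 27 against 50.6 to 101 CPM in the other 3 kainate mice, and it was 0.98 ± 0.32 without mouse 27 (adjusted p = 0.458). Of 8 astrocyte markers, 4 rose and 1 fell in the EZ at day 3, 4 rose in the PIZ at day 3 and 6 rose in the EZ at day 7. Of the 8 microglia and macrophage markers, at day 3, 7 rose on the injected side and 8 on the other. In saline mice at day 3 their sum was 406.9 to 718.0 CPM in the EZ and 236.0 to 327.2 CPM in the PIZ. The astrocyte markers summed to 6073 to 8904 CPM and 4257 to 5715 CPM in the same saline groups. The all-gene shares that rose were 16.1%, 7.12% and 20.6% for the EZ at day 3, PIZ at day 3 and EZ at day 7. Without mouse 18, 2 astrocyte and 4 microglia and macrophage markers rose in the EZ at day 3, and 4 microglia and macrophage markers in the PIZ, and without mouse 44, 2 astrocyte markers fell in the EZ. Their part in the Myo10 change was not tested.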

How the data were processed

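Polyadenylated RNA of both dentate gyri of 24 mice gave 48 libraries, grouped by side, treatment and day from the labels. The authors trimmed reads with fastp 0.20.1, aligned them with HISAT2 2.2.1 to GRCm39 and assigned read pairs to Gencode genes with featureCounts of Subread 1.6.4, by strand, counting multi-mapping reads once. The deposited values are raw gene counts, not normalized. The authors tested with DESeq2 1.32.0.

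Here gene symbols and positions came from a later Gencode release (98.90% of identifiers matched). After a filter on low counts (filterByExpr) and TMM scaling, edgeR 4.0.16 fitted 12 group means to all libraries in R 4.3.3, and quasi-likelihood tests gave Benjamini-Hochberg adjusted p-values over the 21390 genes tested. The thresholds were those of the study. CPM are counts on the scaled library sizes, and correlations used log2 CPM with a prior count of 2. The steps were tested on simulated data. Alternatives used limma 3.58.1 and DESeq2 1.42.0, other scalings and filters, a block for the mouse, and fits that drop each mouse in turn. Each mouse is the replicate, and the 2 libraries of a mouse are paired by its number in the labels. Their residuals correlated at -0.054 to 0.376, over 0.1 in 20 of 24 mice.

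The 5 genes, the family and marker lists and the tests were chosen with earlier results of these data known. Genes named were the 5, the family genes called with the smallest p or of the most similar protein, and the 5 genes with the highest r for each member. The sex of each mouse, which the labels do not give per sample, was not modelled. Unmodelled differences between mice, such as seizure severity, stay within the spread. Depth, at 17762656 to 25712975 counts per library, limits Krt73 most.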

Additional observations from a re-analysis of the deposited data

Results flagged for a closer look

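In 60 groups of 4 libraries (5 genes in 12 groups), 4 held a library whose gap to its neighbour was large against the range of its group on the log2 CPM scale. Chance gives about 1 in 20. They were Kitl in the EZ of kainate mouse 44 at day 3 (26.7 CPM, a gap of 0.904 of the range), Kitl in the EZ of saline mouse 28 at day 14 (31.1 CPM, 0.895), Krt73 in the EZ of kainate mouse 27 at day 14 (0.0906 CPM, 0.842) and Vsnl1 in the PIZ of saline mouse 39 at day 14 (345 CPM, 0.849). The 2 saline values lie close to their groups, at 28.1 to 28.4 CPM for Kitl and 283 to 292 CPM for Vsnl1, whereas the nearest mice to the 2 kainate values held 73.8 CPM of Kitl and 1.63 CPM of Krt73.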

How the results depend on the processing

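The tested effects were recomputed under 8 or 9 alternatives each and with each mouse left out. Under the alternatives 240 values kept their direction and side of the threshold, 5 were newly called and 2 changed sign. With a mouse left out 251 kept both, 4 lost the call and 9 changed sign. Limma-voom with quality weights newly called the Kitl side difference at day 7 (0.93), Krt73 in the PIZ at day 3 (-1.16) and the Vsnl1 side difference at day 3 (-0.71), and turned Krt73 and Syndig1l in the PIZ at day 14 to 0.26 and -0.03. Vsnl1 in the PIZ at day 3 was also called with DESeq2 (-0.60) and on the compared groups alone (-0.59). The cause was not tested. The 2 libraries of a mouse were paired by a replicate block, which changed no call: the Kitl side difference at day 7 was 0.89 with the mouse as a random effect and 0.90 as a fixed effect, and the consensus correlation was 0.163. With a mouse left out, Syndig1l in the PIZ at day 3 ran from 0.81 to 1.10 and lost its call for 4 mice. Near-zero values changed sign in the PIZ at day 14 for Krt73 (-0.27 to 0.31), Syndig1l (-0.07 to 0.19) and Myo10 (-0.02 to 0.14), in the EZ at day 14 for Syndig1l (-0.05 to 0.22), and in its side difference at day 14 (-0.16 to 0.20). With 4 mice per group, effects whose intervals are wide, above all those of Krt73, can be neither called nor excluded.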
